A study of Homo sapiens with 4 samples.

Results

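The response of SUM159 cells to 1 week of miR-100 induction was examined on the arrays titled for that line, 1 induced and 1 control. These were 2 of the 4 arrays of the series, and the other 2 hold the same states of MDA-MB-231. SUM159 is an established triple-negative breast cancer line. The induced cells carried the lentiviral Ptripz-mir100 plasmid, had been selected with puromycin and had been kept with a tetracycline-type drug for the week. The control cells carried the same plasmid under the same selection and grew without the drug. Both were grown in Ham's F12 medium with serum, hydrocortisone and insulin. The labels call the drug either doxycycline or tetracycline. The series design speaks of SUM149, but every sample is labelled SUM159, the name used here. No cells that lack the insert were given the drug, so effects of the drug and of miR-100 cannot be told apart. Whether the RNA of each array came from its own culture is not stated. With 1 array per state there is no spread between replicates and no test, and every difference below is between these arrays.

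MicroRNAs are short RNAs that guide Argonaute proteins to messenger RNAs through a seed at their 5′ end, which lowers the stability or translation of the target. miR-100 belongs to the miR-99 family and is made from a host transcript, MIR100HG, that also holds let-7a-2 and miR-125b-1. Its reported targets include the kinase gene MTOR, the mitotic kinase gene PLK1 and the chromatin remodelling genes SMARCA5 and SMARCD1, and it has been studied as a brake on growth in several tumours.

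The mature sequences are shown because the seed decides which messenger RNAs the induced microRNA can pair with. Capitals mark the seed, bases 2 to 8, and the sequences are RefSeq's on GRCh38.p14. miR-100-5p comes from chr11:122152275-122152296 on the minus strand, and miR-99a-5p, the family member with the same seed, from chr21:16539101-16539122 on the plus strand. The passenger arm miR-100-3p (chr11:122152240-122152261, minus strand) and the neighbour let-7a-5p (chr11:122146568-122146589, minus strand) carry other seeds. miR-21-5p (chr17:59841273-59841294, plus strand) is shown because its gene had the second highest difference among microRNA genes. A site that pairs with the miR-100-5p seed reads TACGGGT in a messenger RNA written as DNA.
hsa-miR-100-5p: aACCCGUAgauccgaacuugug
hsa-miR-99a-5p: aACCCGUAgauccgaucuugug
hsa-miR-100-3p: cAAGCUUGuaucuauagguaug
hsa-let-7a-5p: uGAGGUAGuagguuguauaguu
hsa-miR-21-5p: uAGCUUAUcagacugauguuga

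The induced gene was read first. MIR100 had a log2 signal of 18.18 in induced cells and 6.56 in control cells, higher by 11.62. Its probeset does not separate the mature microRNA from a longer transcript of the construct. Of 11 genes of the locus and family, 5 passed the filter on dim signals, and MIR100 and MIRLET7A2 were past 1.5-fold higher. MIRLET7A2, the gene of let-7a-2, had signals of 6.32 and 5.38 in induced and control cells. The host transcript MIR100HG had 6.19 and 5.84, and its neighbour BLID had 5.46 and 4.99. MIR99AHG, the host of miR-99a on another chromosome, differed by -0.09.

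The cells matched the label on most of the markers listed for a triple-negative line. The intermediate filament genes KRT8 (11.84 in induced and 12.06 in control cells), KRT18 (10.58 and 10.31), KRT7 (12.10 and 12.13) and VIM (16.23 and 15.76) lay far above the signal cutoff of 4.035, as did CD44 (11.71 and 10.82). The hormone receptor genes ESR1 (3.62 and 3.68) and PGR (3.18 and 3.17) lay below it, and ERBB2, which also defines the class, had no probeset of its own and was not checked. The epithelial adhesion gene EPCAM lay just above it, at 4.55 and 4.86, and the luminal factor GATA3, listed as low, stood at 6.46 and 7.21. Of 14 genes marking blood, endothelial or fibroblast cells, 12 had a probeset of their own and 4 were above the cutoff on both arrays. The 4 were the blood gene CD3E (4.56 and 4.41) and the fibroblast genes COL1A1 (6.01 and 6.87), DCN (4.37 and 4.84) and PDGFRB (5.22 and 5.31). These 12 ranged from 3.32 to 6.01 in induced cells and from 2.93 to 6.87 in control cells.

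Induced minus control differences were taken for 14418 genes, each by the brightest of its probesets. A gene was counted when it reached 1.5-fold, which is 0.585 on the log2 scale. In induced cells 570 genes (3.95%) were at least that much higher and 432 (3.0%) that much lower, and at 2-fold the counts were 105 (0.728%) and 84 (0.583%). The last genes inside this limit stood at 0.59 and -0.59, and the first outside at 0.58 and -0.58. Among the 35250 probesets below the cutoff, 1.2% were past the limit higher and 2.18% lower, and their differences had a spread of 0.193 log2 units (SD from the median absolute deviation). The median difference of kept genes was 0.00, with quartiles at -0.15 and 0.18, and the array medians were 4.0 in induced and 4.07 in control cells. Differences moved with signal: with genes cut into 5 equal groups by signal, the median was -0.07 in the dimmest group and 0.06 in the brightest. Of the genes counted, 555 higher and 415 lower were above the cutoff on both SUM159 arrays. A further 15 crossed it upward and 17 downward, so their size depends on a signal near background. Of genes named below as past the limit, AXL, MCL1, MYOF, CD68, HK2, PKM, DUSP4, TNRC6A, IFNAR2 and ANKRD1 were inside it after quantile normalization of the arrays.

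**Figure D1:**
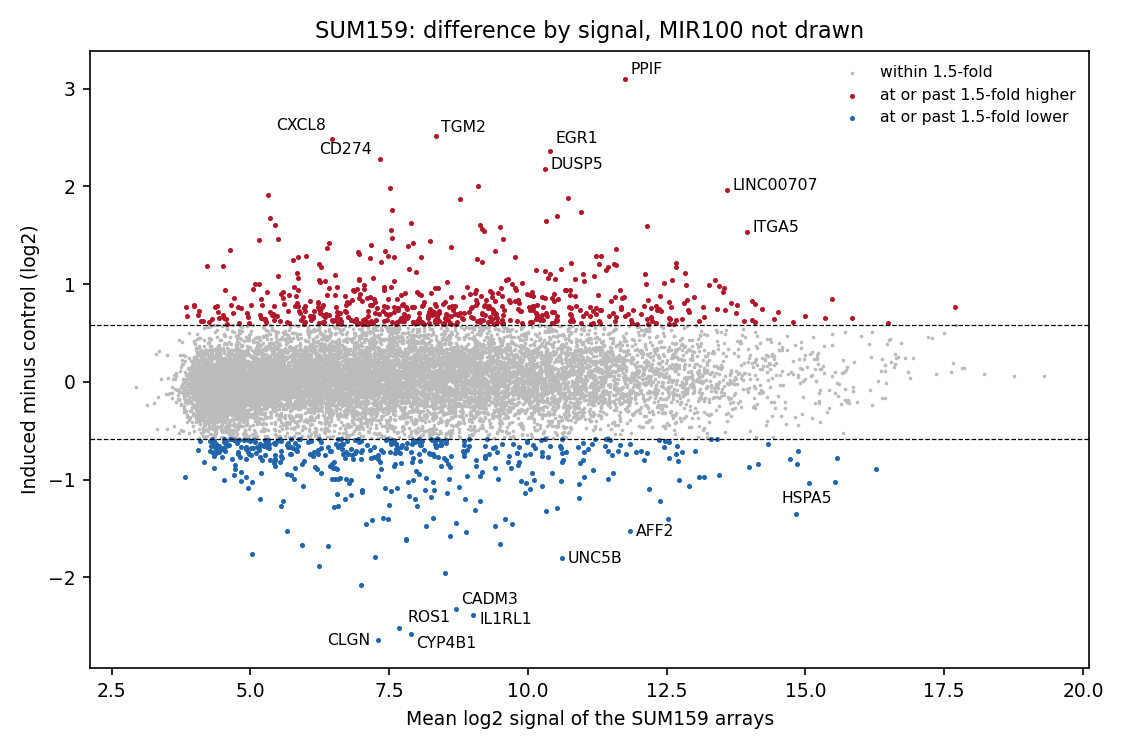
Induced minus control difference in SUM159 (log2) against the mean log2 signal of the SUM159 arrays, 1 point per kept gene other than MIR100. Red points are the genes at or past 1.5-fold higher, blue points those at or past it lower, and dashed lines mark that limit. PPIF stands at 3.10 and CLGN at -2.64, and the labelled genes span the range of signals.

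Apart from MIR100, the 24 highest differences lay between 1.55 and 3.10 on the log2 scale, which is 2.93-fold to 8.57-fold, and all 24 were above the cutoff on both arrays. They hold 22 protein-coding genes, and growth factor signalling, inflammation, matrix and the cytoskeleton are all present among them. PPIF encodes cyclophilin D, a regulator of the mitochondrial permeability transition pore, and had 13.30 in induced and 10.20 in control cells. TGM2, the tissue transglutaminase that crosslinks matrix proteins, had 9.59 and 7.08, which is 5.7-fold. CXCL8, the neutrophil chemokine interleukin 8, had 7.71 and 5.23, 5.58-fold. The receptor and channel genes of the set were TRPC4, a calcium-permeable channel (10.10 and 8.10), FCAR, the Fc receptor for IgA (8.51 and 6.53), and S1PR1, a sphingosine 1-phosphate receptor (6.19 and 4.51). The lung and gut mesenchyme transcription factor gene FOXF1 had 6.27 and 4.36, where the control signal was close to the cutoff. VCL, which encodes the focal adhesion protein vinculin, had 10.28 and 8.70. RCN3, a calcium-binding protein of the secretory pathway (11.15 and 9.50), and HS3ST3A1, a heparan sulfate sulfotransferase (8.71 and 7.09), both act on secreted or surface products. The long noncoding RNA gene LINC00707 had 14.56 and 12.60. OR51B2 of the olfactory receptor family (6.24 and 4.64) and RNA5SP243, which matched no gene ID (11.66 and 9.78), complete the genes of the 24 that no list below describes.

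The 25 lowest differences lay between -2.64 and -1.44, and 23 of them belong to protein-coding genes. CLGN encodes calmegin, a chaperone of the endoplasmic reticulum, and had 5.97 in induced and 8.61 in control cells, 6.23-fold lower. Several of the 25 are enzymes or transporters. CYP4B1, a cytochrome P450 of fatty acid and xenobiotic oxidation, had 6.60 and 9.18. SULT1E1, the oestrogen sulfotransferase, had 4.15 and 5.91, and the prostaglandin transporter gene SLCO2A1 had 5.10 and 6.77. PECR, a peroxisomal enzyme of fatty acid metabolism, had 7.80 and 9.38. Others encode surface or secreted proteins: the chemerin receptor CMKLR2 (5.29 and 7.18), the proteoglycan SPOCK1 (8.67 and 10.33) and the hyaluronan-binding protein TNFAIP6 (7.42 and 8.90). AFF2, an RNA-binding nuclear protein gene, had 11.08 and 12.61. NIBAN1 (8.66 and 10.14), INSYN2B (8.99 and 10.45) and RIPOR2 (7.99 and 9.43) differed by -1.48 to -1.44. The noncoding members were LINC03033 (7.0 and 8.61) and the microRNA gene MIR4323 (8.12 and 9.66).

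**Figure D2:**
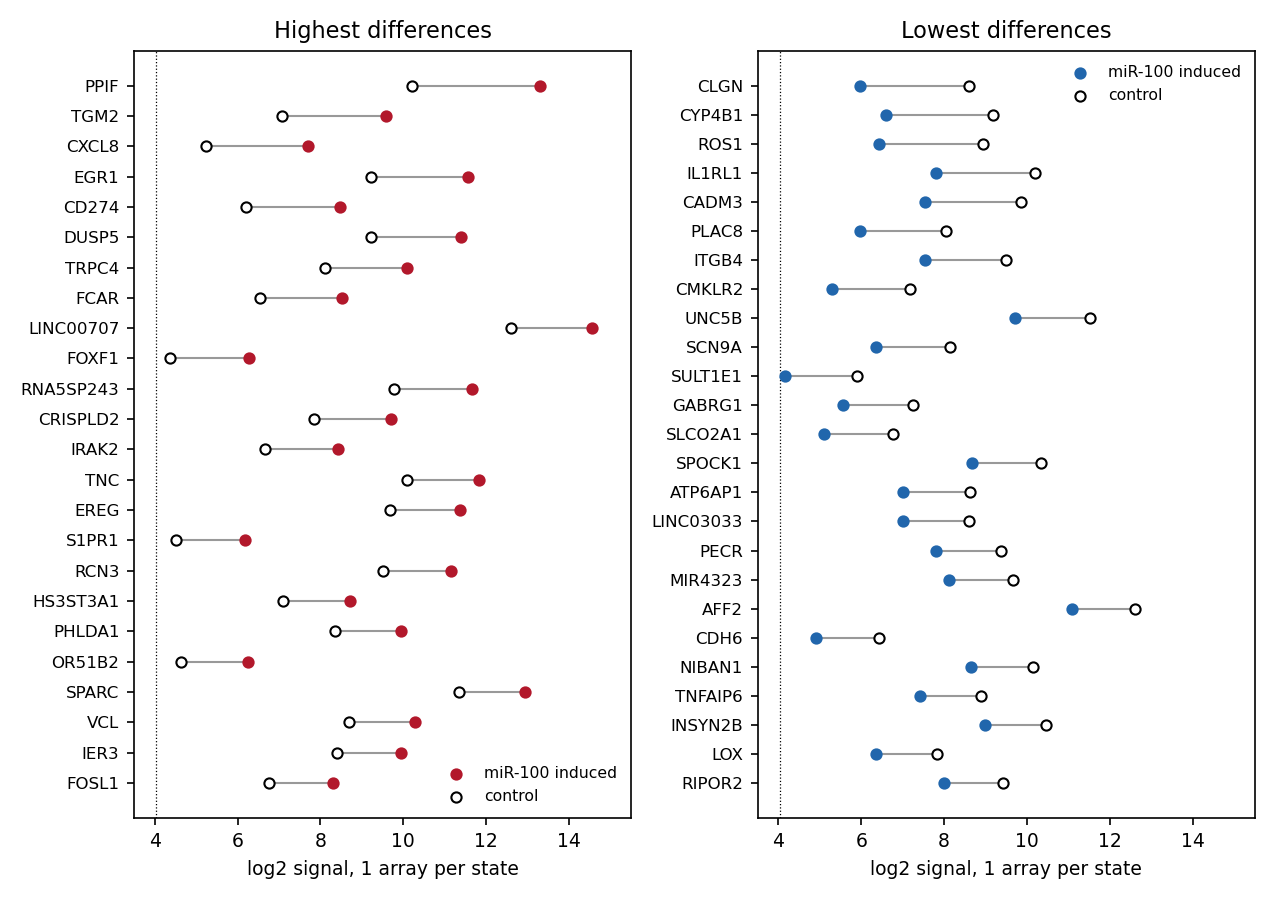
Log2 signal of the genes with the 24 highest differences after MIR100 (left) and the 25 lowest (right) in SUM159. Filled points are the induced array, open points the control array, 1 array per state, and the dotted line marks the cutoff of 4.035. All points lie above the cutoff, from 8.57-fold higher (PPIF) to 6.23-fold lower (CLGN).

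The listed immediate early genes and ERK feedback genes were higher in induced cells in larger proportion than genes at large. ERK activity was not measured. These lists and those below were chosen with earlier results of these data known, so their shares follow in part from that choice. Members that are among the highest or lowest genes above repeat that result. Immediate early genes are switched on within minutes of a stimulus by factors already in the cell, and ERK feedback genes restrain the kinase that induced them. Of 19 kept immediate early transcription factor genes, 9 (47.4%) were past 1.5-fold higher and 0 lower, with a median of 0.58, against 3.95%, 3.0% and 0.00 over all kept genes. EGR1 had 11.57 in induced and 9.21 in control cells, 5.13-fold. The AP-1 subunit genes were higher side by side: FOSL1 had 8.31 and 6.76, JUNB 10.39 and 9.38, and FOS 6.27 and 5.30. FOSB differed by 0.82, JUND by 0.78 and JUN by 0.74. KLF6 stood just inside the limit at 0.57, while SRF, which encodes the factor that binds serum response elements, differed by 0.05 and BHLHE40 by -0.05. In all, 17 of the 19 differences were above 0.

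Of 17 ERK feedback and output genes, 6 (35.3%) were past 1.5-fold higher and 1 lower, against 3.95% and 3.0% over all kept genes. The median was 0.33. The dual-specificity phosphatase genes, whose products remove phosphate from MAP kinases, were all higher: DUSP5 had 11.39 in induced and 9.21 in control cells, DUSP6 had 6.96 and 6.07, and DUSP4 had 6.53 and 5.93. PHLDA1 had 9.94 and 8.34, and IER3, also an NF-kB target, had 9.95 and 8.39. The ETS factor genes of the list split, with ETV4 at 0.70, ETV5 at -0.3 and ETV1 at -0.68. The Sprouty genes, inhibitors of the pathway, did not share a direction: SPRY4 differed by 0.39, SPRY1 by 0.02 and SPRY2 by -0.39. The cyclin D1 gene CCND1 differed by 0.27.

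The EGF family ligand genes EREG and HBEGF were also among the higher genes. EREG, which encodes the EGF receptor ligand epiregulin, had 11.37 in induced and 9.67 in control cells, and HBEGF had 7.54 and 6.55. They were the 2 members past the limit of 8 kept EGF family genes, whose median was 0.195, and -0.05 over 11 genes with no filter on signal. The receptor gene EGFR had 13.46 and 12.98. The ligand genes TGFA, NRG1 and NRG2 differed by 0.41, -0.11 and -0.15. The receptor tyrosine kinase genes outside this family did not share a direction. Of 24 kept, 1 (4.17%) was past the limit higher and 4 (16.7%) lower, with a median of -0.015. AXL had 15.68 and 15.03, and MET, the hepatocyte growth factor receptor gene, differed by 0.55. ROS1 had 6.42 and 8.94, and the collagen receptor gene DDR2 had 4.52 and 5.55. EPHA3 (-0.75) and KDR (-0.65) were the others past it lower.

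The 250 bases before the RefSeq start (GRCh38.p14) are shown for 4 of the highest genes, so that motif matches can be seen in place. HSPA5, the endoplasmic reticulum chaperone gene described below, is shown too. All 4 hold a match and do not stand for the highest genes at large. TGM2 and DUSP5, also among the highest, are not shown and are not among the genes with a counted match. Capitals mark the matches found by a search of both strands for AP-1 (TGANTCA), NF-kB (GGANNTTCC), the CArG box of serum response elements (by its usual degenerate motif) and the ER stress element (by name). EGR1 lies at chr5:138465229-138465478, PPIF at chr10:79347219-79347468, CXCL8 at chr4:73740319-73740568 and CD274 at chr9:5450292-5450541, all on the plus strand, and HSPA5 at chr9:125241344-125241593 on the minus strand. EGR1 holds 2 CArG boxes and PPIF 1. CXCL8 holds an AP-1 and an NF-kB match, CD274 an NF-kB match, and HSPA5 an AP-1 match followed by the ER stress element.
EGR1: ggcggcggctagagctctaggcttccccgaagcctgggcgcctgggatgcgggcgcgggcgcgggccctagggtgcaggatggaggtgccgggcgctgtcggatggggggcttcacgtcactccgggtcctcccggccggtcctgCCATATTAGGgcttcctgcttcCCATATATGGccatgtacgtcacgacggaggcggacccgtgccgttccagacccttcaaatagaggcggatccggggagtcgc
PPIF: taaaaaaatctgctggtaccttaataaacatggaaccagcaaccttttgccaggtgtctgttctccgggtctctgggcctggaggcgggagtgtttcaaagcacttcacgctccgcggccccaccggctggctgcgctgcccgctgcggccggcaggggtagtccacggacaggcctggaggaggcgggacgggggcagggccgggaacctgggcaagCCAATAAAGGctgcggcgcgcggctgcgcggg
CXCL8: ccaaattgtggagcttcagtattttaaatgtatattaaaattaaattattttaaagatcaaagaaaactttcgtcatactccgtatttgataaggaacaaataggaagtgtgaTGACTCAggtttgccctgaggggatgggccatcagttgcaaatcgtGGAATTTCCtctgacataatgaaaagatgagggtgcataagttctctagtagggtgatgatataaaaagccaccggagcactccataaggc
CD274: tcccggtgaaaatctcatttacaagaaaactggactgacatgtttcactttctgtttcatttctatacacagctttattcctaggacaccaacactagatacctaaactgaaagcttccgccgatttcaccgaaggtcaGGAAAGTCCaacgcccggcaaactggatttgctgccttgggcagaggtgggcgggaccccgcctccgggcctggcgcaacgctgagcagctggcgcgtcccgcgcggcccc
HSPA5: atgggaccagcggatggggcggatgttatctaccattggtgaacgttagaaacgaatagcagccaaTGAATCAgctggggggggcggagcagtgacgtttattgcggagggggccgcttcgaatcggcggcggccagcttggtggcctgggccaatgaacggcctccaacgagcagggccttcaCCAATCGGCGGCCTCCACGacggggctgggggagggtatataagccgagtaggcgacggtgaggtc

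Motif matches were then counted in windows of 250 bases before to 50 after the start, over the 10222 kept genes with a RefSeq promoter. A match describes the letters only and does not show that a factor binds. The CArG box was in 11 of the 363 higher genes (3.03%) and 3 of the 295 lower genes (1.02%), against 1.08% of all 10222. The higher holders include EGR1, PPIF and genes of the actin cytoskeleton: TPM4 (tropomyosin, 13.98 in induced and 13.06 in control cells), ACTG1 (gamma actin, 18.08 and 17.32), CNN2 (calponin, higher by 0.74) and MYO1E (an unconventional myosin, 10.45 and 9.72). These 4 genes were picked after their values were seen. The AP-1 motif was in 6.89% of higher and 4.75% of lower genes, against 4.73% of all, and the NF-kB motif in 6.61% and 3.39%, against 4.58%. The cAMP response motif (TGACGTCA) was in 4.13% and 2.71%, against 3.17%. The amino acid response motif that ATF4 binds (TGATGNAA) was in 1.93% of higher and 4.07% of lower genes, against 1.86%. Of its 12 lower holders, only SLC7A1 is in the ATF4 list described below, and IL20RB, SEMA3C and SULT1E1 are among the rest. The AP-1 and cAMP response motifs cannot match the same letters, other pairs of motifs were counted without regard to overlap, and windows of neighbouring genes that share a start region are counted for each gene.

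NF-kB is a dimeric transcription factor held in the cytoplasm by inhibitors, several of which are themselves its targets. Of 24 kept NF-kB subunit and feedback genes, 7 (29.2%) were past 1.5-fold higher and 0 lower, against 3.95% and 3.0% over all kept genes. The median was 0.395. IRAK2, a kinase of interleukin 1 and Toll-like receptor signalling, had 8.43 in induced and 6.67 in control cells. The deubiquitinase gene TNFAIP3, which encodes the feedback inhibitor A20, had 9.72 and 8.46, and its partner TNIP1 had 10.53 and 9.61. TNIP3, NFKBIE and NFKB2 differed by 0.89, 0.79 and 0.77. The inhibitor gene NFKBIA differed by 0.48 and the adhesion receptor gene ICAM1 by 0.50, both inside the limit, and BIRC2 by -0.46.

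Secreted inflammatory genes were fewer. Of 20 kept chemokine, interleukin and colony-stimulating factor genes, 3 were past the limit higher and 0 lower, with a median of 0.14. Besides CXCL8 these were CXCL2, with 7.53 in induced and 6.67 in control cells, and IL32, with 12.12 and 11.26. CSF1, the macrophage growth factor gene, differed by 0.53 and IL18 by 0.37. Their receptors went both ways, with 4 of 29 (13.8%) higher, 3 (10.3%) lower and a median of 0.00. The interleukin 1 receptor gene IL1R1 had 9.54 and 8.60, while IL1RL1, the receptor of interleukin 33 in the same family, had 7.81 and 10.20. IL18R1 had 9.43 and 10.25, and IL20RB had 11.77 and 12.99. TNFRSF21 (0.81) and the interferon receptor genes IFNGR2 (0.72) and IFNAR2 (0.65) were the others past it higher.

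Of 11 kept immune checkpoint ligand genes, 3 (27.3%) were past the limit higher and 0 lower, against 3.95% and 3.0% over all kept genes. The median was 0.44, and 0.06 over 19 genes with no filter on signal. CD274, the gene of PD-L1, which engages the inhibitory receptor PD-1 on T cells, had 8.48 in induced and 6.20 in control cells, 4.86-fold. NT5E, which encodes CD73, an enzyme that makes adenosine at the cell surface, had 13.27 and 12.05, and CD276 had 10.20 and 9.46. NECTIN2 and PVR, ligands of TIGIT, differed by 0.53 and 0.44. As whole lists, the interferon and antigen genes beside them did not share this direction. Of 31 interferon-stimulated genes 2 were higher and 2 lower, with a median of -0.17: GBP2 had 6.24 and 5.43, GBP1 7.79 and 7.01, BST2 8.92 and 9.66, and IFIT2 4.23 and 5.18. Of 22 antigen presentation genes 0 passed the limit either way, with a median of 0.035, 11 differences above 0 and 11 below. Those with the highest mean signal were B2M (0.33), HLA-E (0.53), HLA-C (0.13) and TAPBP (-0.35).

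The extracellular matrix is the network of secreted proteins around cells, which proteases cut and crosslinking enzymes stiffen. Of 35 kept genes for matrix glycoproteins, proteases, inhibitors and crosslinkers, 14 (40.0%) were past the limit higher and 2 lower. Over all kept genes the shares were 3.95% and 3.0%. The median of the list was 0.26. TGM2, CRISPLD2, TNC and SPARC are also among the 25 highest genes, so their calls repeat that result. SPARC, a collagen-binding glycoprotein of remodelling matrix, had 12.94 in induced and 11.35 in control cells. TNC, which encodes tenascin C, had 11.82 and 10.08, the proteoglycan gene VCAN had 7.06 and 5.69, and CRISPLD2 had 9.71 and 7.84. Among proteases, the gelatinase gene MMP2 had 12.26 and 10.90, and PLAT, the tissue plasminogen activator gene, had 11.89 and 10.68. The lysyl oxidase gene LOX ran the other way, with 6.36 and 7.82. FN1 (fibronectin), with 15.56 and 15.57, and THBS1 (thrombospondin), with 14.43 and 14.86, did not join the higher genes. Of 16 collagen genes, 0 were past the limit higher and 1 lower, with a median of 0.025, and that one was COL1A1 at 6.01 and 6.87. With no filter on signal, the median of the matrix list over 47 genes was 0.06.

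Integrins bind matrix outside the cell and vinculin-linked actin inside it, and laminins are their basement membrane ligands. Of 19 kept integrin and laminin genes, 7 (36.8%) were past the limit higher and 1 lower, against 3.95% and 3.0% over all kept genes. The median was 0.28 and became -0.03 over 27 genes with no filter on signal. ITGA5, the fibronectin receptor chain, had 14.72 in induced and 13.19 in control cells, ITGA3 had 13.11 and 12.07, and ITGB3 had 7.48 and 6.43. The laminin chain genes LAMA1 (6.49 and 5.21), LAMC1 (12.01 and 11.14) and LAMB1 (10.50 and 9.82) were higher, while LAMB2 differed by -0.11. ITGB4, the chain that anchors hemidesmosomes, had 7.53 and 9.49, and its partner ITGA6 differed by 0.49. Of 27 cadherin and cell adhesion molecule genes, 3 were higher and 4 lower, with a median of 0.07. CADM3 had 7.53 and 9.86 and CDH6 had 4.90 and 6.43, while CADM1 had 9.67 and 9.03, the desmosome gene DSP 7.38 and 6.74, and CXADR 7.52 and 6.57. N-cadherin, CDH2, differed by 0.07.

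**Figure D3:**
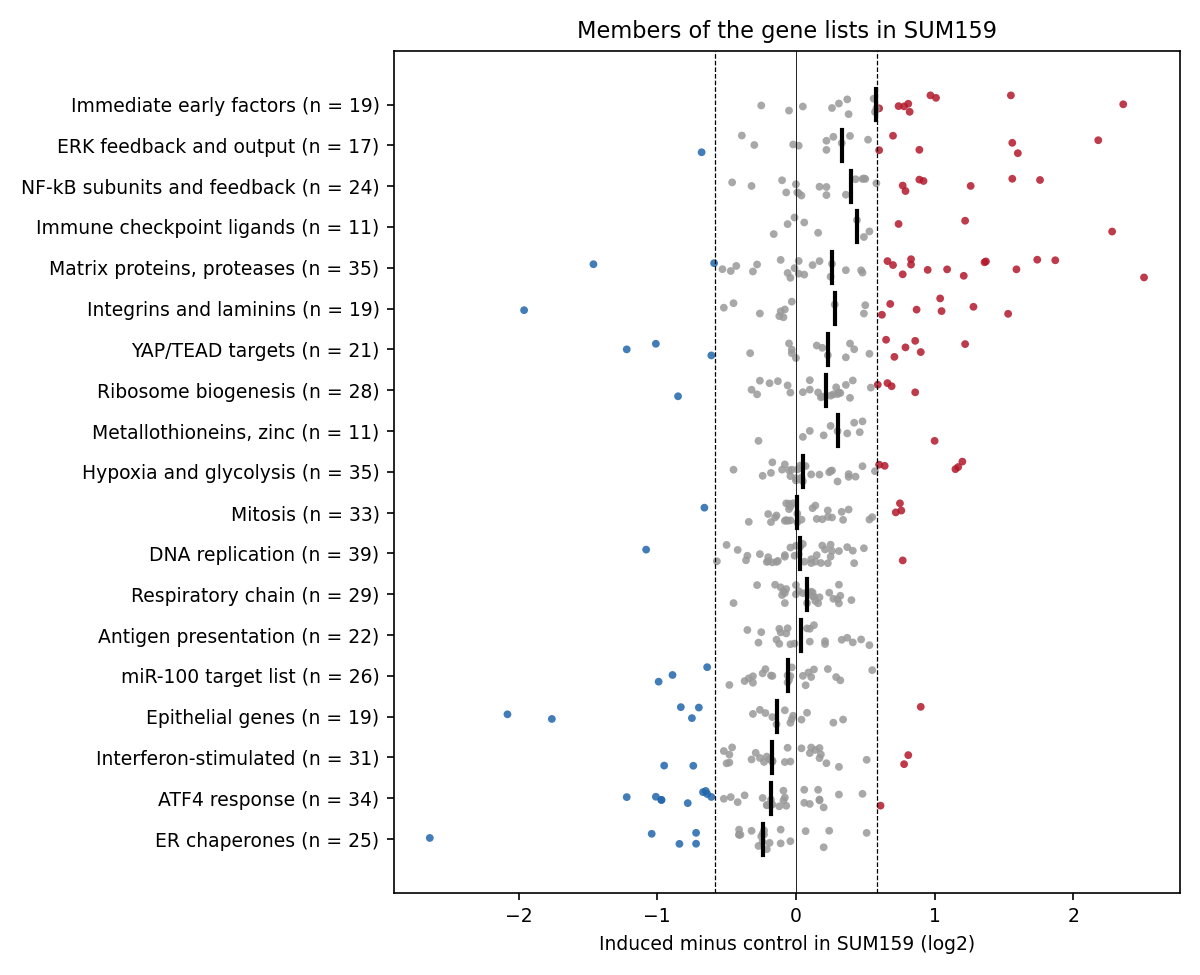
Induced minus control difference (log2) of each kept member of 19 gene lists in SUM159. Each point is 1 gene on 1 pair of arrays, red and blue points are past 1.5-fold (dashed lines), and black bars are list medians, with n the number of kept members. The medians run from 0.58 for immediate early factors to -0.24 for ER chaperones.

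YAP and TEAD act downstream of adhesion and cytoskeletal tension, and their targets were mixed. Of 21 kept targets, 6 (28.6%) were past the limit higher and 3 (14.3%) lower, with a median of 0.23. After quantile normalization the counts were 4 and 2. Over all kept genes the shares were 3.95% higher and 3.0% lower. CCN1, a secreted matricellular gene, had 10.92 in induced and 10.02 in control cells, MYOF had 14.86 and 14.15, and NUAK2 6.02 and 5.16. ANKRD1, a gene widely used to read the pathway, had 4.03 and 4.64, and CRIM1 had 12.22 and 13.23. NT5E and AXL are in this list as well as in lists above. Of 38 TGF-beta and BMP pathway genes, 2 (5.26%) were higher and 3 (7.89%) lower, with a median of -0.01. The ligand genes stood opposite each other: TGFB1 had 11.53 and 10.50, and TGFB2 had 8.53 and 9.75. The activin subunit gene INHBA differed by -0.79, the secreted target TGFBI by -0.71, and the activin antagonist FSTL3 by 0.80.

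Of 19 kept luminal and basal epithelial genes, 1 was past the limit higher and 5 (26.3%) lower, against 3.95% and 3.0% over all kept genes. The median was -0.14. The bright keratin genes KRT8, KRT7 and KRT18 differed by -0.22, -0.03 and 0.27. PLAC8 and SULT1E1 are also among the 25 lowest genes described above, so their calls repeat that result. PLAC8 had 5.96 in induced and 8.04 in control cells, the tight junction gene CLDN1 had 7.29 and 8.12, and TRIM29 had 5.48 and 6.18. GATA3 and SULT1E1 were the others. SERPINB5, the gene of maspin, had 7.42 and 6.52. Of 15 epithelial-mesenchymal transition genes, CD44 was the only one past the limit, and the median was -0.05: VIM differed by 0.47 and ZEB1 by -0.27. A second, dimmer probeset of CD44 differed by -0.13. Of 18 breast stem cell and pluripotency genes, 2 were higher and 1 lower, with a median of -0.11. PROCR, the protein C receptor gene, had 11.88 and 10.59, and SOX9 had 5.19 and 5.90.

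Of 31 kept axon guidance genes, 4 (12.9%) were past the limit higher and 3 (9.68%) lower, with a median of -0.01. Over all kept genes the shares were 3.95% higher and 3.0% lower. UNC5B, a netrin receptor gene, had 9.72 in induced and 11.52 in control cells, and the semaphorin gene SEMA3C had 6.86 and 8.12. NRP1, the semaphorin and VEGF co-receptor gene, had 12.95 and 11.94, and SLIT2 had 7.58 and 6.79. Of 21 ion channel genes, 1 (4.76%), TRPC4, was higher and 3 (14.3%) were lower, with a median of -0.01. The sodium channel gene SCN9A had 6.35 and 8.14, and the GABA-A receptor subunit genes GABRG1 and GABRA3 had 5.56 and 7.24, and 8.12 and 8.76.

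The endoplasmic reticulum folds secreted proteins with chaperones that are induced when unfolded protein accumulates, and most of these genes were lower. Of 25 kept chaperone and sensor genes, 5 (20.0%) were past the limit lower and 0 higher, against 3.0% and 3.95% over all kept genes. The median was -0.24, and 21 differences were below 0. CLGN (-2.64), the lowest gene of the comparison, is 1 of the 5. HSPA5, the master chaperone BiP, whose promoter is printed above, had 14.54 in induced and 15.58 in control cells. HYOU1 had 14.43 and 15.27, SEL1L of ER-associated degradation 12.42 and 13.14, and the stress sensor gene ERN1 7.15 and 7.87. Smaller differences of the same sign were read for CANX (-0.24), PDIA3 (-0.23) and CALR (-0.19), and the oxidase gene ERO1A stood at 0.51.

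ATF4 is the transcription factor of the integrated stress response and drives amino acid transport and synthesis. Of 34 kept genes of this response, 9 (26.5%) were past the limit lower and 1 higher, against 3.0% and 3.95% over all kept genes. The median was -0.18. The cystine transporter gene SLC7A11 had 12.69 in induced and 13.66 in control cells, and PSAT1 of serine synthesis had 15.17 and 15.95. The stress genes NUPR1 (9.60 and 10.61), GDF15 (4.98 and 6.20) and TRIB3 (9.22 and 9.86) were lower too. The transfer RNA synthetase genes split, with WARS1 at -0.65, NARS1 at -0.21 and GARS1 at 0.06. In the mTOR list 1 of 25 genes passed the limit, with a median of -0.03. That gene was DDIT4, an inhibitor of mTOR complex 1 that the ATF4 list also holds, with 12.59 and 13.56. RICTOR, a core subunit of mTOR complex 2, had 11.04 and 10.53.

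Listed miR-100 targets were gathered from reports and predictions. Of 26 kept targets, 3 (11.5%) were past the limit lower and 0 higher, against 3.0% and 3.95% over all kept genes. The median was -0.06, with 17 differences below 0 and 9 above. Over all kept genes 7116 differences were below 0 and 7041 above. The median of the targets was -0.025 once the median of genes of like signal was subtracted from each difference. CTDSPL, a small phosphatase gene, had 6.23 in induced and 7.22 in control cells. SMARCD1, a SWI/SNF subunit gene, had 6.91 and 7.80, and the pseudokinase gene TRIB2 had 4.85 and 5.49. SMARCA5 of the ISWI remodellers differed by -0.31 and ICMT by -0.48, inside the limit, while PLK1 differed by 0.55. In the wider list of 27 SWI/SNF and ISWI genes the median was -0.07, with SMARCD1 lower and SMARCA1 (7.04 and 6.07) higher, 3.7% each. Of 11 microRNA processing genes 2 were higher and 0 lower, with a median of 0.19: DICER1, the enzyme that cuts the hairpin, had 11.15 and 10.21, and TNRC6A, an Argonaute partner, had 9.50 and 8.87.

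Cell cycle genes differed singly. Of 33 kept mitosis genes, 3 were past the limit higher and 1 lower, with a median of 0.01. The kinase gene CDK1 had 8.76 in induced and 8.04 in control cells, the mitotic kinesin gene KIF20A 11.61 and 10.86, and ASPM of the spindle pole 10.25 and 10.91. Of 39 replication genes, 1 was higher and 1 lower (2.56% each, against 3.95% and 3.0% over all kept genes), with a median of 0.03. Both load the replicative helicase: CDT1 had 8.18 and 7.41, and CDC6 had 8.22 and 9.30. Of 15 cyclin, CDK and inhibitor genes, CDK6 was lower (7.92 and 8.66), and the median was 0.11. Of 20 p53 targets, 2 were higher and 1 lower, with a median of 0.05, led by the death receptor gene FAS with 7.34 and 6.41. In the BCL2 family the antiapoptotic members parted, with MCL1 at 13.51 and 12.85 and BCL2 at 9.87 and 11.16, and the median of 14 genes was 0.11.

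Of 35 kept hypoxia and glycolysis genes, 5 (14.3%) were past the limit higher and 0 lower, against 3.95% and 3.0% over all kept genes, with a median of 0.05. After quantile normalization 3 were past it. The glucose transporter gene SLC2A3 had 12.15 in induced and 10.95 in control cells, the carbonic anhydrase gene CA12 12.03 and 10.86, and the phosphofructokinase gene PFKP 11.17 and 10.02. PKM (0.64) and HK2 (0.60) were the others, while LDHA differed by -0.03. Of nuclear-encoded mitochondrial genes, 0 of 29 respiratory chain genes and 0 of 36 mitochondrial ribosomal protein genes passed the limit, with medians of 0.08 and 0.03. Of 38 mitochondrial carrier and permeability genes, 2 were higher and 1 lower, with a median of 0.095, and PPIF and the carrier genes SLC25A36 (10.89 and 10.06) and SLC25A30 (5.79 and 6.51) were those 3. Of 28 ribosome biogenesis genes, 4 (14.3%) were higher and 1 lower, with a median of 0.22: POLR3G of RNA polymerase III had 10.73 and 9.87, and the polymerase I factor gene RRN3 had 9.40 and 10.25.

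The remaining lists held 1 or 2 genes past the limit in a direction. Over all kept genes the shares were 3.95% higher and 3.0% lower. The lysosome list stood at 3.03% each way and the Wnt list at 2.94% each way. Of 33 lysosome genes, the protease gene CTSB (10.24 in induced and 9.28 in control cells) was higher and the proton pump accessory gene ATP6AP1 (7.0 and 8.62) lower, with a median of 0.02. Of 25 cholesterol genes INSIG1, a sterol sensor, was higher by 0.67, with a median of 0.03. Of 11 metallothionein and zinc exporter genes, MT1F was higher by 1.00, with a median of 0.30. These genes are close paralogs whose probes can share transcripts. Of 14 glucocorticoid response genes, 2 were higher and 2 lower, with a median of -0.13. DUSP1 had 11.96 and 10.67, whereas FKBP5, the standard reporter of the glucocorticoid receptor, had 12.96 and 13.91. In the Wnt list of 34 genes DKK3 was higher (11.20 and 10.31) and WNT5A lower (5.86 and 6.56), with a median of -0.025, and in the Notch list of 16 genes HES7 was higher by 0.68, with a median of 0.08. Of 6 kept genes in the list of other cell types, CD68 was higher by 0.62 and COL1A1 lower, with a median of 0.02.

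Small noncoding RNAs differed from protein-coding genes in their shares. Of 11883 kept protein-coding genes, 3.75% were past the limit higher and 2.84% lower. Of 150 small nucleolar RNA genes, whose products guide chemical modification of ribosomal RNA, 27 (18.0%) were higher and 6 (4.0%) lower, with a median of 0.195. SNORA38B had 9.30 in induced and 7.92 in control cells, SNORD12B 8.23 and 6.95, and SNORA5A 8.43 and 7.28. Of 17 small nuclear RNA genes, 4 were higher and 0 lower, with a median of 0.20. Of 369 microRNA genes, 12 (3.25%) were higher and 37 (10.0%) lower, with a median of -0.11 and a median signal of 4.91, not far above the cutoff. MIR21, the gene of the oncogenic miR-21, had 5.88 and 4.43, and MIR4516 had 6.11 and 7.31. These probesets do not tell a mature microRNA from its precursor. Of 504 long noncoding RNA genes, 1.39% were higher and 2.98% lower.

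**Figure D4:**
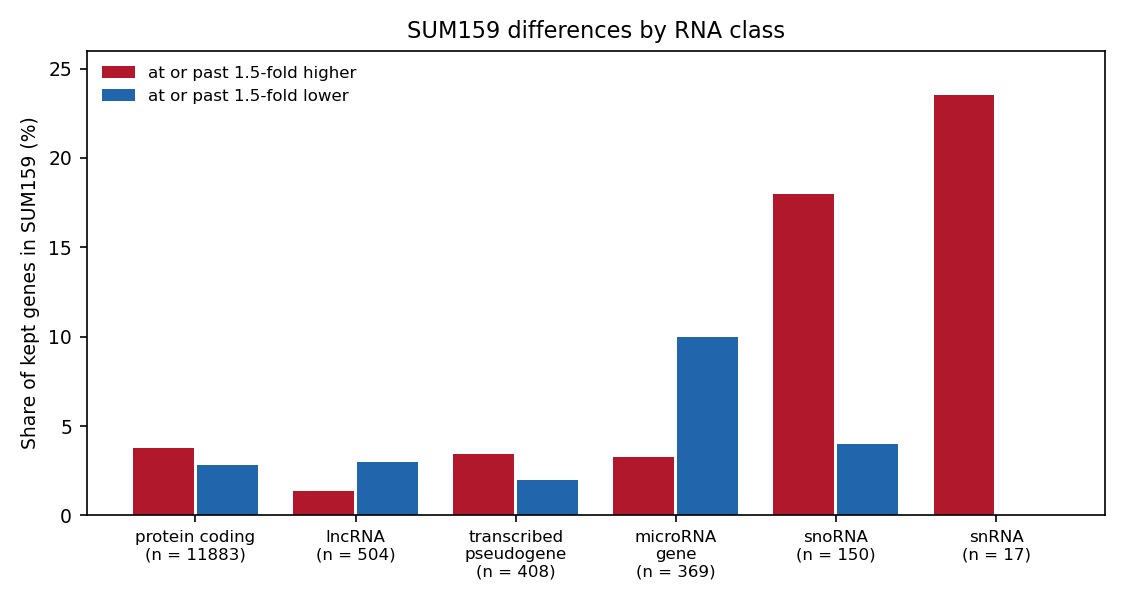
Share of kept genes (%) at or past 1.5-fold higher (red) and lower (blue) in induced SUM159 cells, by RefSeq gene type, with n the number of kept genes. Small nucleolar RNA genes reach 18.0% higher and microRNA genes 10.0% lower, against 3.75% and 2.84% of protein-coding genes.

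The same gene could be read from other probes in few cases. Of the 1002 genes past the limit (6.95%), 14 had another probeset of their own. The other probeset had the same direction in 10 of 14 and was past the limit the same way in 2. Apart from CD44, it stood on the other side of 0 for ZFP36L1, an RNA-binding regulator of unstable messages, at -0.09 against 1.04. MIR548A2 and RPS26P11 did the same. The probeset that carries the symbol NDUFB2 matched no gene ID and differed by 1.42, where another differed by 0.07.

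MDA-MB-231, another established triple-negative line, carried the same plasmid, spent the same week with or without the drug and was grown in DMEM with serum. With 1 array per group a difference between the lines has no replicate error, so the values are given side by side with no test. MIR100 had 17.29 in induced and 8.11 in control MDA-MB-231 cells, higher by 9.18. Of the 570 genes higher in SUM159, 22 (3.86%) were past the limit higher and 5 (0.877%) lower in MDA-MB-231, where 1.69% of all kept genes were higher and 0.784% lower. Their median there was 0.02, and 15 were below the cutoff on both MDA-MB-231 arrays. Of the 432 lower genes, 12 (2.78%) were lower and 12 higher there, with a median of -0.01, and 23 were below the cutoff. Apart from MIR100, the 24 highest genes of SUM159 ranged from -0.38 to 0.57 in MDA-MB-231 and the 25 lowest from -0.91 to 0.49, with only ATP6AP1 past the limit the same way. As lists in MDA-MB-231, immediate early genes had a median of 0.03, ERK feedback genes of -0.10, NF-kB genes of -0.03, matrix genes of -0.01 and ER chaperones of 0.02, each with 0 members past the limit in either direction. The ATF4 list had a median of -0.21 there and 2 members past the limit lower, and the miR-100 target list had -0.165 and 3. Those 3 targets were SMARCD1 (-0.73), MTOR (-0.66) and CTDSPL (-0.65). SMARCD1 and CTDSPL were past the limit lower in SUM159 as well, where MTOR differed by -0.37.

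**Figure D5:**
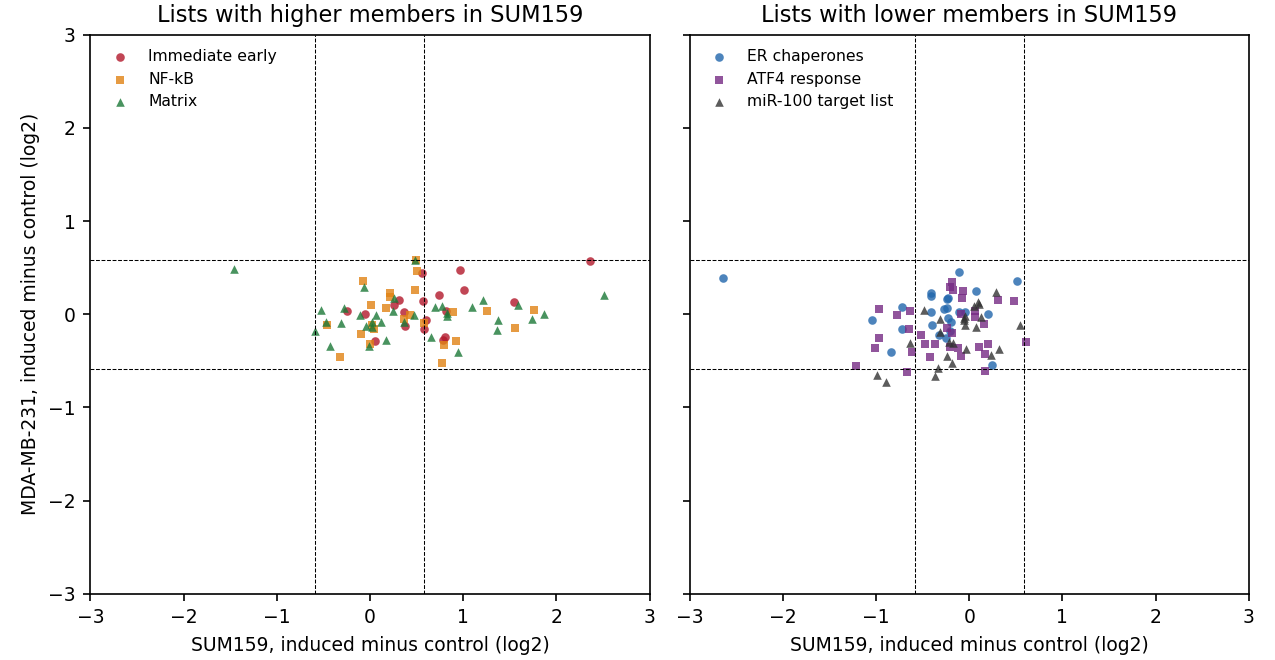
Induced minus control difference (log2) in SUM159 (horizontal) and in MDA-MB-231 (vertical) for kept members of 3 lists with higher members in SUM159 (left) and 3 lists with lower members (right). Dashed lines mark 1.5-fold, and each point is 1 gene with 1 array per state and line. The points spread further along the SUM159 axis, where EGR1 reaches 2.36 and CLGN -2.64, against 0.57 and 0.39 in MDA-MB-231. The lists were picked for their SUM159 members, so a wider spread on that axis follows in part from the choice. Over all kept genes the spread (SD from the median absolute deviation) was 0.252 in SUM159 and 0.208 in MDA-MB-231.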

How the data were processed

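RNA was prepared with Trizol and its cDNA hybridised to Affymetrix arrays after biotin labelling, per the labels' protocols. The authors' deposited table gives 1 log2 signal for each of 70523 probesets on 4 arrays. Per the submitters' processing notes, Affymetrix Expression Console and Transcriptome Analysis Console made it. The sources used here give no version, normalization or genome build for it. If a shift common to most genes of an array existed, normalization may have taken it out.

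The platform annotation gave 1 symbol to 23781 probesets, several to 1543 and none to 45199. The brightest probeset of each of 22465 genes was taken, and the 14418 genes whose 4-array mean reached 4.035, the median of all probesets' means, were kept. Gene IDs of 13422 matched RefSeq (GRCh38.p14), which supplied gene types and sequences. Differences and counts were computed with pandas 2.3.3 on Python 3.11.15, tested on simulated data.

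The text names genes of the miR-100 locus, those with the 25 highest and 25 lowest differences, 5 each way among noncoding genes, and per list up to 8 past 1.5-fold and 4 more by signal. The marker genes of the cell type check were also given. SPRY1, SPRY2, ETV5, MTOR and further genes named for promoter motifs, second probesets or opposite directions were chosen after their values were seen. The members and the 45 lists were chosen with earlier results of these data known. Alternatives covered scaling, centring, the signal filter, probesets, gene type and the fold. The number of arrays limits the precision.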

Additional observations from a re-analysis of the deposited data

Results flagged for a closer look

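In 17 genes the SUM159 and MDA-MB-231 differences were past 1.5-fold in opposite directions, and this difference between the lines was not tested. The protein-coding ones higher in SUM159 were HOXC13, a homeobox gene (0.83, and -0.94 in MDA-MB-231), and RFLNB (0.59 and -0.63). Those lower in SUM159 were LAPTM5, a lysosomal membrane protein gene (-1.03 and 0.64), SPAST, the gene of the microtubule-severing enzyme spastin (-0.80 and 0.61), RAP2B of the RAS family (-0.75 and 0.81), SLC10A5 (-0.68 and 0.83), DCAKD and GOPC (-0.60 and 0.59 each). Noncoding genes and gene segments make up the other 9: LINC00273 (0.73 and -1.54), VTRNA1-3 (1.17 and -0.71), RNY1 (0.84 and -0.85), SNORA31 (-0.73 and 0.65), MIR2054 (-0.74 and 0.81), MIR548T (-0.73 and 0.85), MIR548K (-0.65 and 0.61), IGHD3-10 (-1.01 and 1.03) and IGKV5-2 (-0.71 and 0.84).

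Probesets without a gene symbol were outside the comparisons. Of 18974 above the cutoff, 1557 (8.21%) were past 1.5-fold higher in induced SUM159 cells and 1165 (6.14%) lower. The 2 with the highest differences, TC09001154.hg.1 (10.73 in induced and 5.49 in control cells) and TC09002547.hg.1 (10.63 and 5.48), differed by 1.02 and 0.81 in MDA-MB-231. Of 1086 probesets with several symbols, 64 (5.89%) were higher and 18 (1.66%) lower.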

How the results depend on the processing

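No paired analysis was possible because each group has 1 array, and for the same reason no array could be left out. Counting at 2-fold left 105 genes higher and 84 lower. Under the other settings the counts stayed within 1.5 times of 570 and 432: higher genes ranged from 446 (protein-coding only) to 609 (no filter), and lower genes from 308 (cutoff at the 75th percentile) to 515 (quantile normalization). Which direction held more genes depended on the scaling, with 471 higher and 515 lower after quantile normalization. Centring by the median within 5 groups of signal, chosen after seeing the data, gave 495 and 458. The MIR100 difference ranged from 11.43 to 11.62 where it had a value; protein-coding genes alone gave none. Of the list medians recomputed, 346 moved by less than the spread used and 14 by more. A median could change sign and still count as unmoved. After quantile normalization the adhesion list did so (0.07 to -0.058), as did the cholesterol list (0.03 to -0.052). Subtracting the median of kept genes, which was 0.00, could move none of the 45 medians. The medians of the matrix list (0.06), the integrin list (-0.03), the EGF family list (-0.05) and the checkpoint list (0.06) were lowest with no filter, and those of lists within 0.1 of 0 could change sign after quantile normalization. Named genes that dropped inside 1.5-fold after quantile normalization were FBL (0.45), PKM (0.47), AXL (0.51), MCL1 (0.52), ITGA2 and MYOF (0.53 each), CD68 and HK2 (0.56 each), DUSP4 and TNRC6A (0.57 each), IFNAR2 (0.58) and ANKRD1 (-0.57). DSP (0.58) and PCDH9 (-0.54) did so after centring within groups of signal, and CD44 (0.38) when its probesets were averaged. Genes near the cutoff limit what can be read: a low signal there has no counted depth behind it.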

Other observations

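The median of small nucleolar RNA genes was 0.195 for SUM159, against -0.075 for MDA-MB-231, and that of small nuclear RNA genes was 0.20 for SUM159, against -0.28. The differences are between 1 pair of arrays in each line and were not tested.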
